A study of Bos taurus with 6 samples.

Results

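The miR-2284 and miR-2285 miRNAs are a large set of short, closely related cattle sequences. Its members were taken as all rows of the miRNA table whose name begins with bta-miR-2284 or bta-miR-2285, which gave 63 of 8800 rows, 31 of them miR-2284 and 32 miR-2285. They were measured in intramuscular fat (IMF), the fat between muscle fibres, dissected from the sternomandibularis muscle of Chinese Qinchuan males 24 months old. Steers had been castrated by surgery at 6 months and bulls were left intact. All animals shared a sire, weaning at 3 months and the same diet. Each group had 2 small RNA libraries and 1 mRNA library. The study's methods give pools of 3 animals behind a small RNA library and of 6 behind an mRNA library, whereas the labels give 1 and 3. The p-values therefore measure the spread between these samples only.

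A miRNA guides a silencing complex to mRNAs through its seed, bases 2 to 8 from the 5′ end, so that members with the same seed are expected to pair with overlapping sets of sites. The precursor is a hairpin, and a mature sequence can be cut from either of its arms. Families with many genomic copies differ from one another by single bases, and members with different seeds can share most of their remaining sequence.

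The sequences of the members on which the results turn are shown first, with the seed in capitals. The miR-2284 group holds the most abundant member (miR-2284x), the abundant members miR-2284y and miR-2284w, and members that were lower in steers:
miR-2284x: tGAAAAGTtcgttcgggtttt
miR-2284y: aAAAGTTCgttcgggtttttc
miR-2284w: aAGAGTTTgttcgggtttctc
miR-2284z: aAAAAAGTttgtttgggttttt
miR-2284aa: aAAAAAGTttgtttgggtttt
miR-2284t-3p: aAACTCGAatgaatgttttggc

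The miR-2285 group holds the abundant members miR-2285t and miR-2285o. Also shown are the members whose sequence runs opposite to one of the tested members, apart from miR-2285g and miR-2285af:
miR-2285o: aAACCCGAacgaacttttgg
miR-2285u: gAAAAACCcgaacgaacttt
miR-2285y: aAAACCCAaacaaactttttt
miR-2285t: aGAATCTGgatgaactttttgg
miR-2285q: aAGGACCTgaatgaactttctgg
miR-2285z: cCAGAAAGttcattcaggtcct
miR-2285f: aAAACCTGaatgaactttttgg

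Among these 13 sequences only miR-2284z and miR-2284aa have the same seed, and miR-2284aa lies wholly within miR-2284z. miR-2284x and miR-2284y share a run of 19 nt but start at different bases, so their seeds differ. Over the family, 62 members had a sequence in the sources used here, of 20 to 23 nt, and miR-2284e is given by name only. They carried 40 distinct seeds. Of these, 10 were held by more than 1 member and covered 32 members. The largest group, seed AAAAGTT, held 8 miR-2284 members, 2 of which (miR-2284m and miR-2284ab) passed the filter on low counts. The next held 5 miR-2284 members with the seed AAAGTTC and 4 miR-2285 members with AACCTGA. Only 4 of the 40 seeds were also the seed of another known bovine miRNA in the table. These were shared with miR-2312, miR-7859, miR-2429 and miR-2435. Within the family 34 members were 1 or 2 edits away from another member, and 9 of them were 1 edit away. Reads of such members may be counted under either name, and how reads with several matches were treated is not given in the sources used here.

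The names miR-2284 and miR-2285 largely follow strand. By edit distance, 28 of the miR-2284 members were nearer to miR-2284x and 2 (both 3p arms) to its reverse complement, whereas 28 miR-2285 members were nearer to the reverse complement and 4 to miR-2284x. A total of 21 members shared a reverse-complementary run of at least 15 nt with another member. In RefSeq (assembly ARS-UCD2.0, used for names and neighbouring genes alone), 62 of the 63 rows matched a gene name. They matched 100 of the 191 genes named MIR2284 or MIR2285. Of these 100 genes, 68 lay within the span of a protein-coding gene and 11 overlapped another gene of the family. More than 1 gene matched 13 members, with 7 genes each for miR-2284z and miR-2284y and 5 for miR-2285o, whose counts are then sums over copies.

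The labelled tissue was checked in the mRNA libraries. All 6 adipocyte genes were counted, with at least 205 counts in either library. The mRNA counts summed to 12677375 in steers and 9868415 in bulls. Gene values in this paragraph are CPM (counts-per-million) of these totals, from 1 library per group. Of the 6 genes, 3 were higher and 3 lower in steers. LPL (lipoprotein lipase) had 616 CPM in steers and 228 in bulls, CIDEC (a lipid droplet protein) 783 and 760, and PPARG (a regulator of fat cell differentiation) 22.01 and 20.8. ADIPOQ (the hormone adiponectin) had 356 and 674, PLIN1 (a coat protein of lipid droplets) 355 and 546, and FABP4 (a fatty acid carrier) 312 and 767. Skeletal muscle genes were counted as well, with 1 of 7 higher and 6 lower in steers. MYH1, a fast myosin, was the higher one, at 19.5 against 10.3 CPM. Of the lower ones, ACTA1 (skeletal muscle actin) had 1093 against 2018 CPM, MYH7 (slow myosin) 53.2 against 294 and MYH2 426 against 499. The muscle miRNAs were lower in steers than in bulls, as summed over 6 miRNAs. They reached 2208 and 3377 CPM (scaled by TMM) in steers and 5842 and 5394 in bulls, with 0 of the 6 called up and 2 called down. Immune miRNAs had 1377 and 1087 CPM against 3612 and 1823 (0 up and 2 down of 6). Erythroid miRNAs had 3401 and 7360 against 2248 and 1757 (1 up and 1 down of 3), where the sum was higher in steers although the median log2 fold change of the 3 was -1.79, and epithelial miRNAs 1.03 and 1.05 against 4.76 and 3.86 (1 of 6 tested, called down). None of these miRNAs was at 0 in all libraries. Their part in the results below was not tested.

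Counts per small RNA library summed to between 6556511 and 10452582. The family took 0.275% (95% Wilson interval 0.272 to 0.279) and 0.370% (0.366 to 0.374) of the counts in the steers libraries. Its share of the bulls libraries was 0.154% (0.151 to 0.157) in both. These intervals cover counting error only. One member made up most of the family: miR-2284x held 87.8% and 89.5% of the family's counts in steers and 76.0% and 77.6% in bulls. It ranked 41st and 35th among known bovine miRNAs in the steers libraries, and 64th and 66th in the bulls libraries. All other members together reached 3501 and 3446 counts in the steers libraries, and 2879 and 2265 in the bulls libraries.

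**Figure D1:**
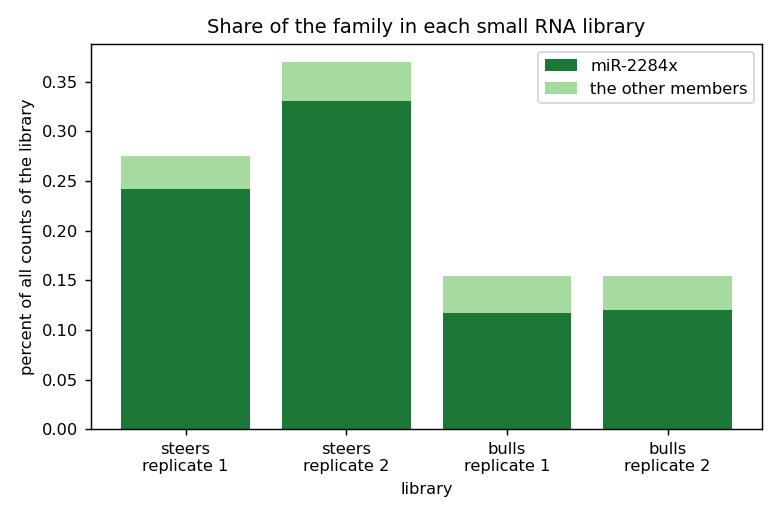
Percent of all counts (vertical axis) that miR-2284x (dark) and the other members (light) took in each of the 4 small RNA libraries. The whole bars reach 0.275% and 0.370% in steers and 0.154% in both bulls libraries, and miR-2284x fills most of each bar.

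A count was found for 62 members in at least 1 library, and miR-2284e had 0 in each library, where a count of 0 allows up to 3 counts. Members with a count numbered 55 and 50 in steers and 56 and 57 in bulls, and 44 had one in every library. Only 7 members had at least 100 counts in every library and 35 had under 10 in every library. Members seen in a single group were few: 2 in steers alone, with 1 count each, and 4 in bulls alone, with at most 5 counts in a library. After the filter on low counts, 26 members were tested. The 37 that did not pass it had at most 12 counts in a library, 190 in all in steers and 158 in bulls.

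One of them, miR-2284k, was chosen after its values were seen. It had 12 counts in each steers library and 0 and 1 in the bulls libraries. It did not pass the filter and was not tested.

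To ask which members differ between steers and bulls, all 1073 sequences that passed the filter were fitted in edgeR (quasi-likelihood test, TMM scaling). A call needed a log2 fold change (steers over bulls) beyond 1 in either direction together with an adjusted p below 0.05. Of the 26 members, 2 were called up in steers (miR-2284x and miR-2285o) and 3 down (miR-2285y, miR-2284z and miR-2284t-3p). Over all sequences, 14.2% were called, 7.08% up and 7.08% down, so that 5 members of 26 is near this background. The steers and bulls libraries did not overlap for 16 members, 9 higher in steers and 7 higher in bulls, beside 58.2% of all sequences. The median log2 fold change of the 26 members was 0.07, with 14 above 0 and 12 below. It was -0.07 over all sequences, -0.18 over the 370 known bovine miRNAs tested outside the family and -0.03 over the 54 tested cattle miRNAs named from miR-2286 to miR-2904. Scaled by total counts, where the median of all sequences was -0.56, the median of the members was -0.42 and no member was called (6 had an unadjusted p under 0.05) beside 0.0932% of all sequences. In bulk tissue, fewer cells of a type and less RNA per cell cannot be told apart. The calls also depended on single libraries. Up calls numbered 0 without steers replicate 1 or steers replicate 2, 7 without bulls replicate 1 and 1 without bulls replicate 2. Beside these, 3.75%, 1.69%, 8.57% and 4.47% of all sequences were called up. Down calls numbered 1 without steers replicate 2, beside 0.507% of all sequences.

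**Figure D2:**
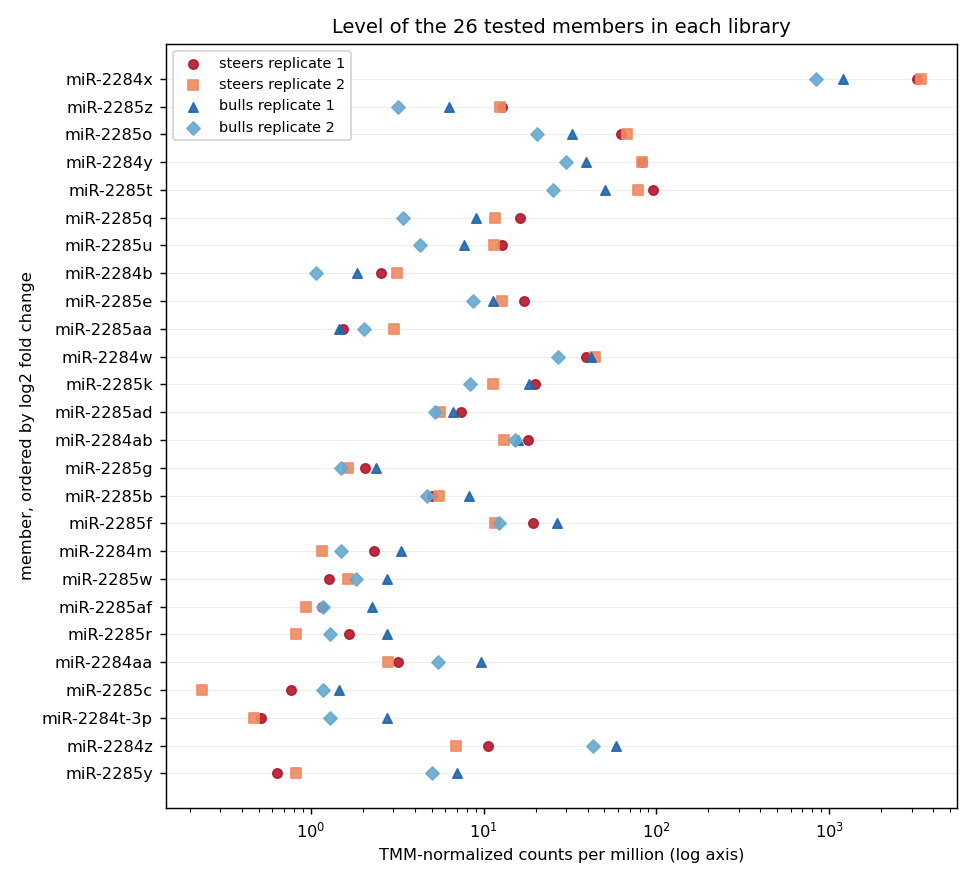
TMM-normalized CPM (horizontal log axis) of the 26 tested members in each library, with steers in red and orange and bulls in blue, ordered by log2 fold change. The levels span from under 1 to 3422 CPM, and the steers points lie to the right of the bulls points in the upper rows and to the left in the lowest rows.

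The most abundant member, miR-2284x, was higher in steers. It had 25274 and 29307 counts in the steers libraries and 9122 and 7847 in the bulls libraries. Scaled, these were 3243 and 3422 CPM in steers (mean 3333 ± 127, SD, n = 2) and 1207 and 841 CPM in bulls (mean 1024 ± 258). Both steers libraries stood above both bulls libraries. The log2 fold change was 1.70 (SE 0.49, edgeR adjusted p = 0.0092). Its gene lies within TIAM1, an activator of Rac GTPases. The mRNA of TIAM1 was counted 104 times in steers and 135 times in bulls (log2 ratio -0.50 by median-of-ratios scaling, counting interval -0.88 to -0.12, 1 library per group). Without steers replicate 1 the edgeR adjusted p of miR-2284x was 0.317, and without steers replicate 2 it was 0.563, with log2 fold changes of 1.78 and 1.70.

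The other member called up was miR-2285o, which runs opposite to miR-2284x over 18 nt. Counts of 486 and 583 were found in steers and 245 and 189 in bulls, or 62.4 and 68.1 CPM against 32.4 and 20.3 CPM. The groups did not overlap, and the log2 fold change was 1.31 (SE 0.47, edgeR adjusted p = 0.0395). It was called in 7 of 13 alternatives, and of the 4 that leave out a library only without bulls replicate 1. Without bulls replicate 2 the value was 0.97.

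The remaining abundant members were not called. For miR-2285t, the values were 95.2 and 78.2 CPM in steers and 50.7 and 25.2 in bulls, with counts of 742, 670, 383 and 235 (log2 fold change 1.19, SE 0.46, edgeR adjusted p = 0.0644). The values of miR-2284y were 82.3 CPM in both steers libraries and 39.4 and 30.02 in bulls, with 641, 705, 298 and 280 counts (1.25, SE 0.46, edgeR adjusted p = 0.0516). In both cases the steers libraries were above the bulls libraries, but the test fell short of the threshold. Level values of miR-2284w overlapped between the groups, at 39.4 and 44.1 CPM in steers and 42.1 and 27.0 in bulls (0.28, SE 0.46). A pair of less abundant members, miR-2285z and miR-2285q, was also higher in both steers libraries. Counts of miR-2285z were 100 and 107 in steers and 48 and 30 in bulls (log2 fold change 1.41, SE 0.54, edgeR adjusted p = 0.0573). Counts of miR-2285q were 127 and 100 in steers and 68 and 32 in bulls (1.18, SE 0.53, edgeR adjusted p = 0.122).

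The 3 members called down were less abundant. The clearest was miR-2284z, a sequence of a, g and t alone. It had 83 and 59 counts in the steers libraries and 440 and 400 in the bulls libraries, or 10.7 and 6.89 CPM against 58.2 and 42.9 CPM. Each bulls library held over 4 times the level of either steers library, and the log2 fold change was -2.53 (SE 0.51, edgeR adjusted p = 4.66e-05). Its call was lost without steers replicate 2 (edgeR adjusted p = 0.160, log2 fold change -2.21). The shorter miR-2284aa, whose letters all lie within miR-2284z, was counted 25 and 24 times in steers and 73 and 51 times in bulls (-1.32, SE 0.54, edgeR adjusted p = 0.0808). When the counts of both were summed, the family still had 2 members called up and 3 called down.

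Counts of miR-2285y were 5 and 7 in steers and 53 and 47 in bulls, and it passed the filter only through the bulls libraries, where it is high. Its log2 fold change of -3.01 (SE 0.63, edgeR adjusted p = 8.76e-05) was the lowest of the 26 members. It was called down in 12 of 13 alternatives, but most of them filter in the same way, so this count is a description. With 1 library left out its log2 fold change ran from -3.27 to -2.57. The remaining call, miR-2284t-3p, rested on 4 counts in each steers library and on 21 and 12 in the bulls libraries (-2.00, SE 0.73, edgeR adjusted p = 0.0456). It lost its call without any one of the 4 libraries, with log2 fold changes between -2.50 and -1.18. Like miR-2285y, miR-2284t-3p passed the filter only through the bulls libraries. Its seed AACTCGA is also that of miR-2435.

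The other members tested fell between these. Above 0 but not called were miR-2285u (log2 fold change 1.02), miR-2284b (0.98), miR-2285e (0.58), miR-2285aa (0.38), miR-2285k (0.22), miR-2285ad (0.14) and miR-2284ab (0.01). Below 0 and not called were miR-2285g (-0.06), miR-2285b (-0.29), miR-2285f (-0.33), miR-2284m (-0.46), miR-2285w (-0.64), miR-2285af (-0.69), miR-2285r (-0.70) and miR-2285c (-1.38). Their SE ran from 0.51 to 0.76.

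Members differ in the number of CG dinucleotides, a pair of letters that reads the same on both strands. Among members with a sequence, 23 held none, 24 held 1 and 15 held 2 or more. Among known bovine miRNAs outside the family, these numbers were 411, 201 and 92. With the CG pairs in capitals, the 4 tested members with 2 of them and the members called down or nested among them read:
miR-2284x: tgaaaagttCGttCGggtttt
miR-2284y: aaaagttCGttCGggtttttc
miR-2285o: aaaccCGaaCGaacttttgg
miR-2285u: gaaaaaccCGaaCGaacttt
miR-2284t-3p: aaactCGaatgaatgttttggc
miR-2284z: aaaaaagtttgtttgggttttt
miR-2284aa: aaaaaagtttgtttgggtttt
miR-2285y: aaaacccaaacaaactttttt

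All 4 tested members with 2 CG had log2 fold changes above 0, from 1.02 to 1.70 with a median of 1.28, and 2 of the 4 were called up. Since these 4 overlap in sequence on one strand or the other, they are not independent. The 7 members with 1 CG had a median of 0.28 (0 called up, 1 down), and the 15 with none had a median of -0.33 (0 up, 2 down). Of these 15, 5 were above 0 and 10 below. Among those above 0, miR-2285z (1.41), miR-2285t (1.19) and miR-2285q (1.18) lay within the range of the members with 2 CG, and none of them was called. Outside the family the medians were -0.03 for 49 miRNAs with 2 or more (5 up, 2 down), 0.02 for 112 with 1 (5 up, 5 down) and -0.39 for 209 with none (8 up, 20 down). Over the 26 members the correlation of log2 fold change with the number of CG was 0.49 (Pearson; Spearman 0.52). With the percent of G and C it was 0.62 (Spearman 0.58). The same correlations over 370 known bovine miRNAs outside the family were 0.19 (Spearman 0.19) and 0.24 (Spearman 0.25). These describe sequences read from the same 4 libraries, and each CG adds to the percent of G and C. For miR-2285y, miR-2285c and miR-2285af, all with no CG, only the bulls libraries reached the level of the filter, which favours values below 0. The same held for miR-2284t-3p, with 1 CG. These members enter the medians and correlations of this paragraph. By G and C content, the 6 members under 30% had a median of -0.98, the 13 from 30 to 40% a median of -0.06 and the 7 over 40% a median of 0.58. Outside the family these medians were -0.72 over 12 miRNAs, -0.71 over 58 and -0.07 over 300, so that there the middle class lay about as low as the lowest. The median of members with 1 CG turned to -0.14 under total-count scaling and that of members with none to 0.22 without bulls replicate 1. No test was made of these groups.

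**Figure D3:**
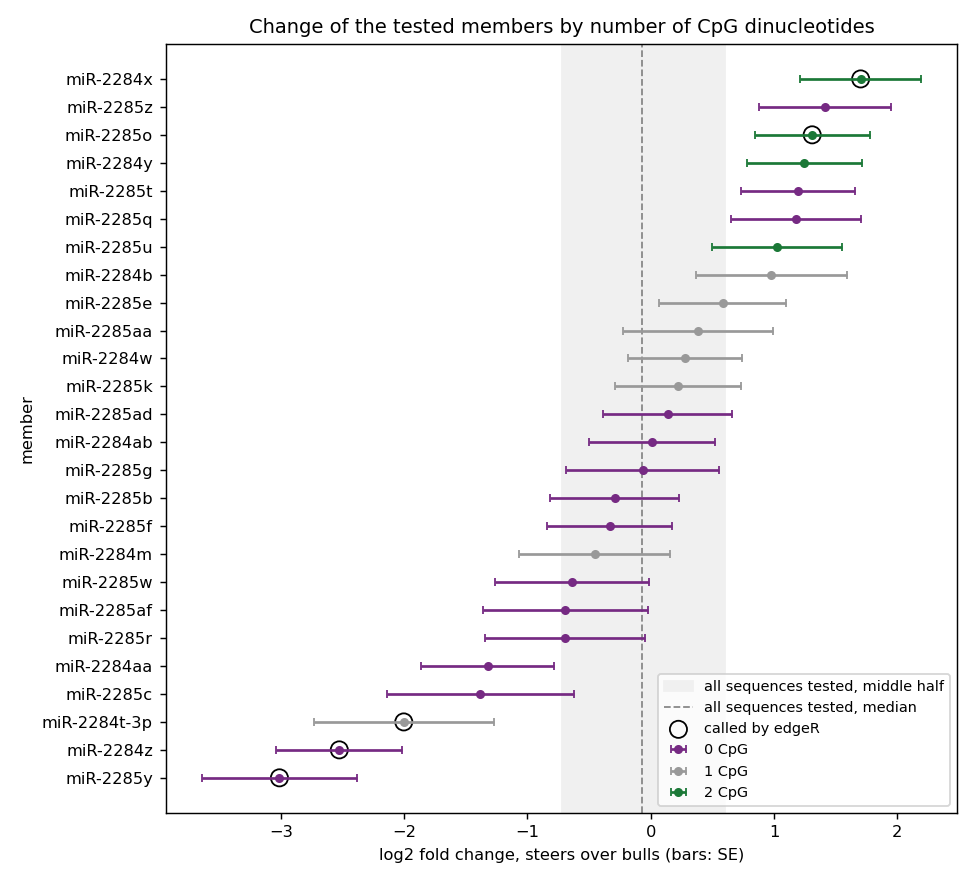
Log2 fold change of steers over bulls (horizontal axis, bars show the SE) for the 26 tested members, coloured by the number of CG (CpG) dinucleotides, with the members called by edgeR circled. The dashed line and grey band give the median and the range between the quartiles of all 1073 sequences, and the 4 members with 2 CpG lie between 1.02 and 1.70.

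Ratios of members within a library do not depend on how libraries are scaled. The pairs were chosen after their values were seen. The ratio of miR-2284x to miR-2284z was 304 and 497 in steers and 20.7 and 19.6 in bulls. For miR-2284y, the count was 7.72 and 11.9 times that of miR-2284z in steers and 0.677 and 0.700 times in bulls, so that their order was opposite in the groups. On the other strand, miR-2285o had 97.2 and 83.3 times the counts of miR-2285y in steers and 4.62 and 4.02 times in bulls. By contrast, miR-2284x had 39.4 and 41.6 times the counts of miR-2284y in steers and 30.6 and 28.0 times in bulls. By edit distance the nearest tested member to miR-2284x is miR-2284m, at 2 edits, and it did not change with miR-2284x. Its counts were 18 and 10 in steers and 25 and 14 in bulls (log2 fold change -0.46, SE 0.61).

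A single base separates miR-2285e and miR-2285c, which have the same seed. The change from miR-2285e to miR-2285c is G11A, counted from 1 at the 5′ end, and it removes the CG, in capitals here:
miR-2285e: aaacctgaaCGaactttttggc
miR-2285c: aaacctgaacaaactttttggc

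Counts of miR-2285e were 134 and 110 in steers and 86 and 81 in bulls, and those of miR-2285c were 6 and 2 in steers and 11 and 11 in bulls. The ratio of miR-2285e to miR-2285c was 22.3 and 55.0 in steers and 7.82 and 7.36 in bulls. Neither was called (edgeR adjusted p = 0.473 and 0.219), and the difference between their changes was not tested. The rarer miR-2285c passed the filter only through the bulls libraries. In another close pair, miR-2284y and miR-2284b, the 2 substitutions (C12T and G15T) leave 1 CG in place of 2. Both of these were above 0, with log2 fold changes of 1.25 and 0.98.

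Of the 9 pairs of tested members that run opposite to each other over at least 15 nt, 8 had log2 fold changes of the same sign. Several pairs share a member, and this count is a description. It includes the pairs of miR-2285y with miR-2284z and miR-2284aa, and of miR-2285af with miR-2285g. Both miR-2285y and miR-2285af passed the filter only through the bulls libraries, so that values below 0 were favoured for them. The pair of miR-2285g and miR-2285af counts as the same sign through -0.06 for miR-2285g, whose sign changed in 6 of 13 alternatives. The longest run, 22 nt, joined miR-2285q and miR-2285z, whose RefSeq genes overlap within SREK1, a splicing regulator. The ratio of their counts was 1.27 and 0.935 in steers and 1.42 and 1.07 in bulls. The mRNA of SREK1 was counted 222 times in steers and 187 times in bulls (log2 ratio 0.13 by median-of-ratios scaling, counting interval -0.16 to 0.41). As a share of the library totals, SREK1 was slightly lower in steers. A run of 21 nt joined miR-2284z and miR-2285y, and 1 of the 7 MIR2284Z genes overlaps MIR2285Y within PLEKHA5. Here miR-2284z had 16.6 and 8.43 times the counts of miR-2285y in steers and 8.30 and 8.51 times in bulls, while both were lower in steers. The nested miR-2284aa shares this run, and its ratio to miR-2285y was 5 and 3.43 in steers but 1.38 and 1.09 in bulls, without overlap between the groups. The mRNA of PLEKHA5 was counted 532 and 328 times (log2 ratio 0.58 by the same median-of-ratios scaling, counting interval 0.37 to 0.78).

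A run of 20 nt joined miR-2284y and miR-2285u, and 1 of the MIR2284Y genes overlaps MIR2285U. Counts of miR-2285u were 99 in both steers libraries and 58 and 40 in bulls. The ratio of miR-2284y to it was 6.48 and 7.12 in steers and 5.14 and 7.00 in bulls. A further pair with a 20-nt run, miR-2285g and miR-2285af, had low counts, from 8 to 18, and log2 fold changes of -0.06 and -0.69. The pair of miR-2284x and miR-2285o had a ratio of 52.0 and 50.3 in steers and 37.2 and 41.5 in bulls, without overlap between the groups. An exception was miR-2285f, which shares a run of 15 nt with miR-2285z. Its log2 fold change was -0.33 (SE 0.51) and that of miR-2285z was 1.41 (SE 0.54). The mRNA table holds 24 rows named MIR2284 or MIR2285, all with 0 counts in both libraries.

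**Figure D4:**
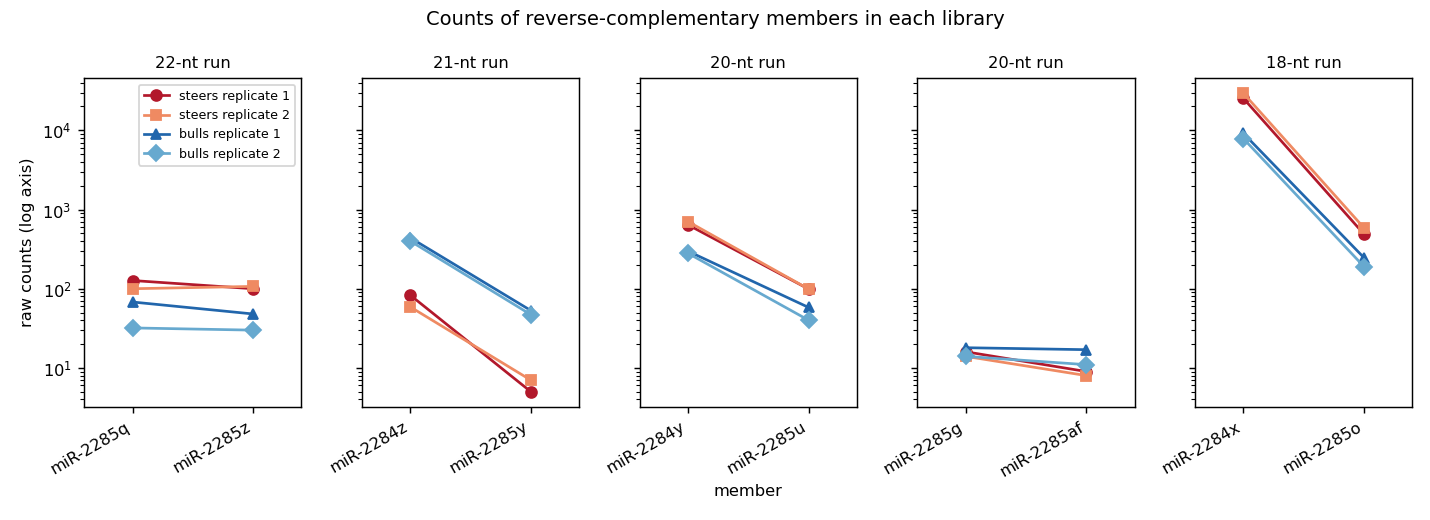
Raw counts (vertical log axis) of 5 pairs of members that are reverse-complementary over the run given above each panel, with a line for each library. In the panel of miR-2284z and miR-2285y both bulls libraries lie above both steers libraries, and in the panels of miR-2285q with miR-2285z, miR-2284y with miR-2285u, and miR-2284x with miR-2285o the steers libraries lie above.

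Under every alternative, each of the 5 called members kept the sign of its log2 fold change, but not always its call. The call of miR-2284x was kept in 9 of 13 alternatives, that of miR-2284z in 12 of 14 and that of miR-2284t-3p in 3 of 13. Both DESeq2 (4 members up and 2 down, beside 11.6% of all sequences called) and limma-voom (1 up and 2 down, beside 10.4%) called miR-2284x up and miR-2284z and miR-2285y down. Further members were called under other scalings. With upper-quartile or median-of-ratios factors miR-2284y, miR-2285t and miR-2285z were also called up, beside 9.41% and 8.20% of all sequences called up, whereas miR-2284t-3p was not called.

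**Figure D5:**
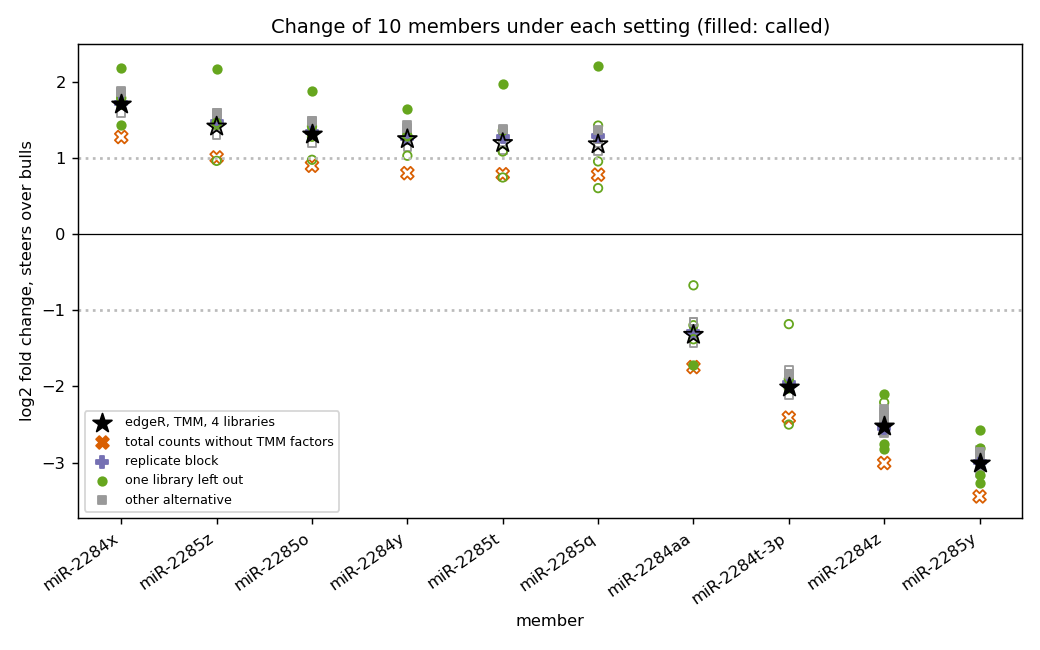
Log2 fold change of steers over bulls (vertical axis) of 10 members under the TMM fit of all 4 libraries (star) and each alternative, with filled symbols where the member was called and dotted lines at 1 and -1. Each member keeps its sign in every setting, and the total-count scaling (crosses) lies below the star for each member and is not filled.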

How the data were processed

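Small RNA was sequenced on an Illumina HiSeq from TruSeq libraries of IMF. The authors removed adaptors and low-quality reads, used BWA to place the rest on miRBase and bovine genome sequences, and predicted further miRNAs with miRDeep. The submitters' processing notes name BWA and the build GRCh37.p13, whose role is not given there. The deposited values are raw counts per mature sequence (miRNA) and per gene (mRNA) with no normalization. Sequences of members were read from the study's supplementary list of known miRNAs, and no coordinates were used, since no genome of the files' build was at hand. Libraries were grouped by treatment, castrated or intact. Scaled by total counts, replicates differed by more than sampling noise (chi-square per degree of freedom of 47.2 in steers and 2.34 in bulls over the members), so each was counted as 1 sample. These values depend on that scaling and do not rank the groups by noise. Scaled by TMM, the SD of miR-2284x was 127 CPM in steers and 258 in bulls.

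All sequences passing filterByExpr were fitted in edgeR 4.0.16 (R 4.3.3) with TMM factors (0.746 and 0.968 in steers, 0.972 and 1.42 in bulls) and tested with glmQLFTest and Benjamini-Hochberg adjustment. The SE was obtained from the log2 fold change and the F statistic. CPM values of miRNAs are scaled by TMM. On simulated data of this comparison the test recovered 136 of 193 sequences changed 4-fold and called 1 unchanged sequence. The simulation gave all sequences the same dispersion and balanced increases with decreases. It therefore cannot show how calls depend on scaling or how well smaller changes are found. Alternatives were total counts, upper-quartile and median-of-ratios scaling, no filter, at least 10 counts in every library of a group, DESeq2 1.42.0, limma-voom (limma 3.58.1), the replicate number as a block, each library left out, known bovine miRNAs alone, and nested sequences summed. All tested members are named. Values by library are given for called members, the 5 with the highest mean CPM, and miR-2285z, miR-2285t and miR-2285q, which the study lists. Marker lists were 6 adipocyte and 7 skeletal muscle genes and the muscle, erythroid, immune and epithelial miRNAs. The members and lists were chosen with earlier results of these data known. For mRNA, with 1 library per group, log2 ratios were scaled by median-of-ratios factors, whereas marker genes are given as CPM of the totals. The ratios carry no test, and their exact counting intervals do not cover the choice of scaling. Targets of the members were not analysed here.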

Additional observations from a re-analysis of the deposited data

How the results depend on the processing

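The number of members called up in steers, 2 with TMM scaling, was 0 with total counts, 5 with upper-quartile or median-of-ratios factors, 1 without a filter, 4 with a stricter filter, 4 with DESeq2, 1 with limma-voom and 7 among known bovine miRNAs alone. Over all sequences the share called up, 7.08% with TMM, was in the same order 0.0932%, 9.41%, 8.20%, 0.409%, 8.67%, 6.62%, 5.41% and 9.85%. Without a filter the call was miR-2284k, which is also 1 of the 4 with the stricter filter, and it passes that filter only through the steers libraries, where it is high. Of all calls, 50% were up with TMM and 66% with upper-quartile factors. With total counts 1 sequence was called, which was up. The number ran from 0 to 7 when 1 library was left out. The number called down was 3 with TMM, beside 7.08% of all sequences, and 0 with total counts, beside 0% of all sequences. A fit without 1 library assumes that the lone sample of a group varies like the other. With total counts the summed level of the family had a log2 ratio of 1.06 in place of 1.49. Without miR-2284x it was 0.45, and with 1 library left out it ran from 1.24 to 1.79. Total counts moved the median of the tested members from 0.07 to -0.42, and the medians by number of CG to -0.76 for none, -0.14 for 1 and 0.85 for 2 or more. With no filter the last of these were -0.067 for 1 and 0.88 for 2 or more. Leaving out 1 library gave medians from -0.18 to 0.51 for all tested members, -0.82 to 0.22 for no CG, 0.16 to 0.90 for 1 and 1.03 to 1.87 for 2 or more.

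With the replicate number as a block, 6 members were called up and 4 down, beside 12.4% and 11.1% of all sequences. The members gained were miR-2284y, miR-2285q, miR-2285t and miR-2285z (up) and miR-2284aa (down). Deviations of samples with the same number correlated at 0.304 over 1073 sequences and 0.407 over the 26 members, but with 2 pairs and no label of a shared animal, litter or day the numbers were not taken to pair the samples.

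Sign changes occurred only in members that were not called. With total counts the log2 fold change turned to -0.14 for miR-2284w, -0.21 for miR-2285k, -0.078 for miR-2285aa, -0.50 for miR-2284ab and -0.34 for miR-2285ad. That of miR-2285g turned to 0.12 with upper-quartile factors, 0.016 with median-of-ratios factors, 0.010 with DESeq2 and 0.075 among known bovine miRNAs alone. For miR-2284ab it was -0.080 with no filter, -0.0087 with limma-voom and -0.0076 with the replicate block. When 1 library was left out, the range passed through 0 for 11 members. It was -0.68 to 0.34 for miR-2285b, -0.97 to 0.39 for miR-2284m, -0.82 to 0.52 for miR-2285f, -0.40 to 0.48 for miR-2285g, -1.24 to 0.13 for miR-2285r and -1.13 to 0.011 for miR-2285af. It was -0.044 to 0.82 for miR-2284w, -0.27 to 1.08 for miR-2285k, -0.18 to 0.26 for miR-2284ab, -0.054 to 0.50 for miR-2285ad and -0.14 to 0.84 for miR-2285aa. The cause was not tested.

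The 37 members that did not pass the filter had at most 12 counts in a library and were not tested in the main fit. The 2 most abundant sequences of each library took 45.8% and 33.8% of its counts in steers, and 25.8% and 19.3% in bulls. This share thus differed between the groups, and its part in the scaling was not tested.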
